A study of Homo sapiens with 6 samples.

Results

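The 7q11.23 neighbourhood is a run of genes on the long arm of human chromosome 7, close to the centromere, that was followed here in clones of the breast cancer line MDA-MB-231 in which WASF3 was knocked down. It was defined by 35 named genes running in order from POM121 to PTPN12, with 1 probe set per gene, the one that was brightest on average across the 6 arrays. Of these, 34 had a probe set naming them alone, among 19775 genes in the whole table. ZP3 had none and is not described by a value of its own. The members were chosen because values of this stretch were seen to be lower in the knockdown clones. Their differences between knockdown and control clones are therefore given as a description. Where members are counted among the calls of the fit over all genes, the count describes them and is no independent test.

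The band is best known from Williams-Beuren syndrome, in which a deletion removes one copy of many of these genes at once. It is flanked by blocks of repeated sequence that carry near-identical copies of genes such as NSUN5, GTF2I and POM121, so that array signals of these genes can include signal from their copies. The members otherwise have little function in common. They include chromatin and RNA-modifying proteins, a replication factor, claudins of the tight junction, kinases and phosphatases, a heat shock protein and enzymes of mitochondria and the endoplasmic reticulum.

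Knockdown and control clones were compared, with 3 clones and 3 arrays in each group. The knockdown clones carried the retroviral vector pSM2 with a short hairpin RNA against WASF3, for which 2 hairpins were used. The control clones carried the empty pSM2 vector or one with a hairpin against GFP. All were puromycin-resistant MDA-MB-231 cells at passage 4, selected at 1.0 µg/ml for 2 weeks, and each was grown out from a single cell colony. The labels do not tie a clone to a hairpin or a control vector. Each array is 1 clone, so differences between clones of the same cell line that existed before infection cannot be told apart from effects of the hairpin, and p-values measure only the spread between these clones. The array reads RNA pooled from all cells of a clone, so fewer cells with a transcript and less of it per cell cannot be told apart.

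WASF3, an activator of the ARP2/3 complex in actin assembly, read 5.40, 5.80 and 4.52 in knockdown clones 1, 2 and 3, against 6.77, 6.42 and 6.59 in control clones 1, 2 and 3, on the log2 scale. All knockdown clones lay below all control clones, with 43.8%, 57.5% and 23.8% of the mean control signal. The change of −1.35 (SE 0.30) had an adjusted p of 0.102 in limma, and without knockdown clone 3 it was −0.99 with a limma adjusted p of 0.0175. With any other single clone left out, the limma adjusted p ran from 0.0858 to 0.42. The 6 markers of a basal or mesenchymal breast line were bright, with an array median of 12.3 to 12.6 in knockdown and 12.4 to 12.5 in control clones, while the 6 luminal markers ranged widely. Of these, FOXA1 averaged 3.05 in knockdown and 3.31 in control clones, PGR 3.32 and 3.31, ESR1 5.73 and 5.89, GATA3 7.12 and 7.37, and ERBB3 7.50 and 6.96. The 5 measured leukocyte markers ranged as well. PTPRC averaged 3.27 in knockdown and 3.20 in control clones, LYZ 3.58 and 3.56, CD14 4.27 and 4.59, CD3E 5.29 and 5.41, and CD79A 5.69 and 5.79. The sixth luminal marker, the epithelial cadherin CDH1, read 7.33 in knockdown clone 1, against 4.44 to 5.19 on the other 5 arrays. An index of RNA quality, the mean log2 excess of 3′ over 5′ signal of GAPDH and ACTB, was 2.11, 1.62 and 1.66 in knockdown clones 1, 2 and 3 and 1.13, 1.47 and 1.26 in control clones 1, 2 and 3.

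Members of the neighbourhood were lower together in the knockdown clones. The median change over the 34 measured members was −0.61 on the log2 scale, or 65.5% of the control signal, while the median over all 19775 genes was −0.01. In 30 members the mean was lower in knockdown clones, and the changes ran from −1.14 for GSAP to 0.30 for CLDN3. Every knockdown clone lay below every control clone in 26 of the 34 members, a pattern that 12.6% of all genes showed. The reverse held for 1 member, CLDN3, and for 12.1% of all genes. In the limma fit over all probe sets, 8 members were called lower (POM121, BUD23, STX1A, RFC2, STYXL1, MDH2, HSPB1 and GSAP) and 0 higher, while 0.42% of all genes were called lower and 0.319% higher. At an unadjusted p under 0.05 the counts were 26 lower and 1 higher among the members, and 1516 lower and 1801 higher among all genes. The members were picked from this contrast, so nothing is read from that count.

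The number of calls depended on single clones, while the median change stayed below 0 whichever clone was left out. Without knockdown clone 1 there were 19 members called lower and without knockdown clone 3 there were 17. Calls over all genes rose in the same settings, to 1.63% and 2.23% lower. Without knockdown clone 2, or without control clone 1, 2 or 3, there were 0. In those settings 15, 2, 3 and 2 of all 19775 genes were called lower. The median change ran from −0.69 without knockdown clone 1 to −0.52 without knockdown clone 2. When that RNA index entered as a covariate, the median was −0.75 and 0 members were called, while over all genes 1 was called lower. The index was higher in every knockdown clone (1.62 to 2.11) than in any control clone (1.13 to 1.47), so RNA quality and knockdown cannot be told apart here. Of its parts, ACTB separated the groups (3.15 to 3.81 in knockdown, 2.27 to 2.91 in control clones). GAPDH did not (0.0586 to 0.419 and −0.0051 to 0.0588). The part of RNA quality in the members' values was not tested beyond that fit.

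**Figure D1:**
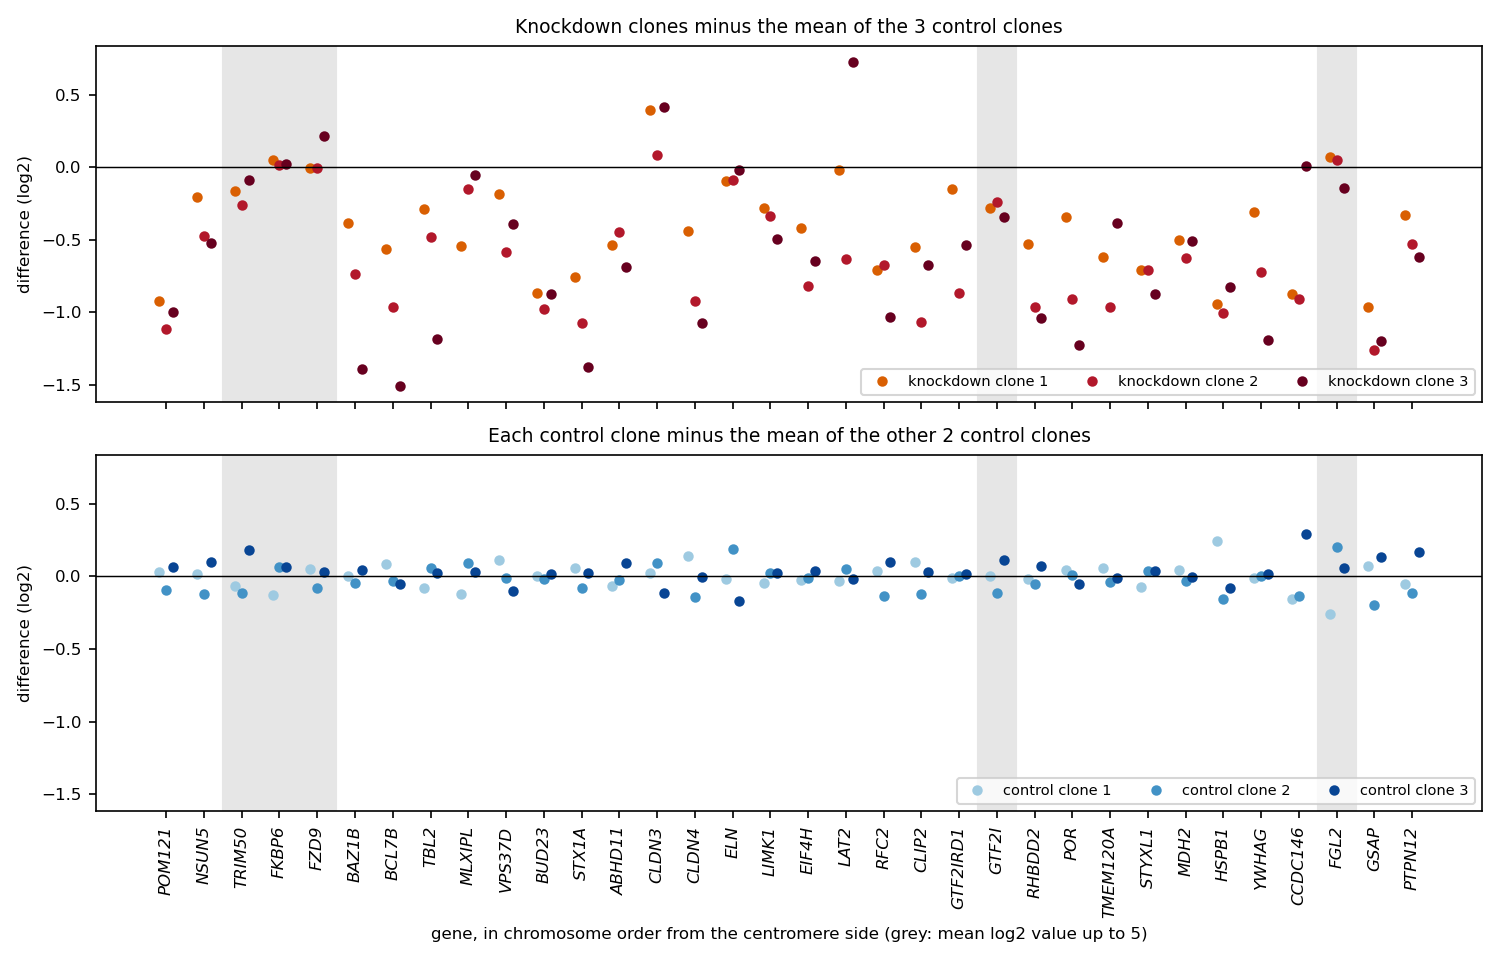
Difference on the log2 scale (vertical axis) of each of the 34 measured members in chromosome order (horizontal axis). In the upper panel each point is a knockdown clone minus the mean of the 3 control clones, and in the lower panel a control clone minus the mean of the other 2 control clones. Grey marks the 5 members with a mean log2 value up to 5. The knockdown points lie mostly below 0, with medians of −0.40, −0.69 and −0.63 for clones 1, 2 and 3, and the control points have medians of 0.00, −0.03 and 0.03.

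Seen clone by clone, the median difference of the members from the mean of the controls was −0.40 in knockdown clone 1, −0.69 in clone 2 and −0.63 in clone 3, or 75.6%, 62.0% and 64.4% of the control signal. These 3 values share the same control arrays. Over all genes the corresponding medians were 0.00, −0.02 and −0.02. Each control clone set against the mean of the other 2 gave members' medians of 0.00, −0.03 and 0.03 for control clones 1, 2 and 3. The differences were below 0 for 31, 31 and 29 of the 34 members in knockdown clones 1, 2 and 3, and below 0 in all 3 clones for 28 members (82.4%), against 23.3% of all genes.

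The members' promoters are shown because they are a feature that the choice of members did not use. RefSeq gives promoter sequence (250 bases before to 50 after the gene start, assembly GRCh38.p14) for 29 of the measured members. ELN, LAT2, GTF2I, RHBDD2 and POR have none in that table. The first pair below belongs to the members with the lowest changes, GSAP and STX1A. The third belongs to CLDN3, whose knockdown values were all above the control values, and the last to FGL2, the dimmest member. All are on the minus strand and written 5′ to 3′, at chr7:77416300-77416599, chr7:73719620-73719919, chr7:73770221-73770520 and chr7:77199770-77200069, with every CG dinucleotide in capitals.
GSAP: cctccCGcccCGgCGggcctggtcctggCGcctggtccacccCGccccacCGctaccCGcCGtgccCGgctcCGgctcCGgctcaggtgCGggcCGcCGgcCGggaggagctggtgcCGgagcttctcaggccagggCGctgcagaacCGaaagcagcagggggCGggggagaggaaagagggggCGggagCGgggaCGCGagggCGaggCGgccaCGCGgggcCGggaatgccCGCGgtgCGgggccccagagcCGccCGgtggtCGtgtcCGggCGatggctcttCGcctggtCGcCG
STX1A: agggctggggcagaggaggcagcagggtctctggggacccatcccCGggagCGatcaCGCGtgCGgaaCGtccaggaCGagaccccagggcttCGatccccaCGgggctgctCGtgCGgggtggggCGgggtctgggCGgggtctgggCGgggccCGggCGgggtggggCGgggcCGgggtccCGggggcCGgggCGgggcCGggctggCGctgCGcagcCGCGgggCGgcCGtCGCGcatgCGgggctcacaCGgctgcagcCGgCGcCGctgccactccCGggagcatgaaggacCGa
CLDN3: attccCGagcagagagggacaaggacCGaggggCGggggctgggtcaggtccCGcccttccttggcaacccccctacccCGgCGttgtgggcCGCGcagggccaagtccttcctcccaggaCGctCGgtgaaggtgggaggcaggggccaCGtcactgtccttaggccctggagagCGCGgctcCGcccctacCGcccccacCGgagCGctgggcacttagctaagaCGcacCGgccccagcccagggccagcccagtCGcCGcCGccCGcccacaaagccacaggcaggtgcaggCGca
FGL2: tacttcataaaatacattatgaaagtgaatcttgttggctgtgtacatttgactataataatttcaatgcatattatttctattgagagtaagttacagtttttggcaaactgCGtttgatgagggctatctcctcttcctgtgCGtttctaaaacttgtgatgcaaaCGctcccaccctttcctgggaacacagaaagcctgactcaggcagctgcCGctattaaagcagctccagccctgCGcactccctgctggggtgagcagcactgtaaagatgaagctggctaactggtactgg

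The 300 bases of GSAP held 39 CG dinucleotides and those of STX1A held 37, while CLDN3 had 24 and FGL2 had 5. The median was 30 in the members, against 22 in 15384 measured genes with a promoter in the table. Above a mean log2 value of 5 it was 30 in 25 members and 26 in 10498 genes. The range in the members ran from 3 in TRIM50 to 45 in EIF4H. CLDN4, which was lower in every knockdown clone, had 5, so a promoter rich in CG was not shared by all members with lower values. The motif GGGCGG, searched on both strands, was in 23 of the 29 promoters (79.3%), against 58.9% of all. Above a mean of 5 the shares were 88.0% of the members and 68.6% of the genes. The motif contains CG and so overlaps with the dinucleotide count. TATAAA was in 0 of the 29 and in 8.76% of all promoters, and CCAAT was in 8 of the 29 (27.6%) and in 36.1% of all.

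Among members that act on chromatin and DNA, BCL7B, a subunit of the BAF chromatin remodelling complex, read 9.16, 8.76 and 8.21 in knockdown clones 1, 2 and 3, against 9.77, 9.70 and 9.69 in control clones 1, 2 and 3. The change was −1.01 (SE 0.22), and the knockdown clones were spread over almost 1 log2 unit with clone 3 lowest. BAZ1B, a bromodomain protein that binds the remodelling ATPase SMARCA5, read 9.89, 9.54 and 8.89 in knockdown clones and 10.27, 10.25 and 10.30 in control clones. It had the same order of clones, with 38.2% of the control signal left in clone 3.

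RFC2, a subunit of the clamp loader that places PCNA on DNA, read 9.68, 9.71 and 9.35 in knockdown clones 1, 2 and 3, against 10.41, 10.29 and 10.45 in control clones. Its change of −0.80 (SE 0.12) left 57.3% of the control signal, and the groups were separated by more than the spread within either. The transcription factor GTF2IRD1 differed by −0.52 (SE 0.17), and MLXIPL, the glucose-responsive factor also called ChREBP, by −0.25 (SE 0.14). MLXIPL read 5.41, 5.80 and 5.90 in knockdown clones, against 5.87, 6.01 and 5.97 in control clones, so its groups overlapped. GTF2I, a general transcription factor, had a mean of 4.70 on the only probe set that named it alone. On a pair of brighter probe sets that also name its pseudogenes it differed by −0.48 and −0.57.

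Members that work on RNA and at the nuclear pore were lower too. BUD23, which methylates the RNA of the small ribosomal subunit, read 9.03, 8.92 and 9.03 in knockdown clones, against 9.90, 9.89 and 9.91 in control clones. Both groups were tight and the change was −0.90 (SE 0.08), or 53.4% of the control signal. POM121, an integral membrane protein of the nuclear pore at the centromere end of the run, read 6.28, 6.08 and 6.21 in knockdown clones, against 7.22, 7.14 and 7.25 in control clones (−1.01, SE 0.09). It was again well separated from its controls. A probe set shared with its copy POM121C gave −0.54 (SE 0.23). EIF4H, a helper of the helicase EIF4A in translation initiation, differed by −0.63 (SE 0.12). NSUN5, which methylates the RNA of the large ribosomal subunit and has near-identical copies nearby, differed by −0.40 (SE 0.11).

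Among membrane and junction proteins, STX1A, a syntaxin of vesicle fusion, read 8.52, 8.20 and 7.90 in knockdown clones 1, 2 and 3, against 9.31, 9.22 and 9.29 in control clones (−1.07, SE 0.15). CLDN4, a claudin that seals tight junctions, read 7.93, 7.45 and 7.30 in knockdown clones, against 8.47, 8.28 and 8.37 in control clones (−0.81, SE 0.16). Its neighbour among the members, the related CLDN3, differed in the other direction. CLDN3 read 6.75, 6.44 and 6.77 in knockdown clones, against 6.36, 6.41 and 6.28 in control clones (0.30, SE 0.11), and knockdown clone 2 lay just above the highest control. Its other probe set read below 5 in every clone and differed by −0.11 (SE 0.22), so the sign differed between probe sets.

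GSAP, the gamma-secretase activating protein, had the largest change of the members. It read 8.46, 8.16 and 8.22 in knockdown clones, against 9.47, 9.29 and 9.51 in control clones (−1.14, SE 0.11), or 45.4% of the control signal. RHBDD2, a rhomboid-like membrane protein, read 8.39, 7.96 and 7.88 in knockdown clones, against 8.91, 8.89 and 8.96 in control clones (−0.84, SE 0.14). For both genes the lowest control lay above the highest knockdown clone by more than the range of the controls. TMEM120A, a membrane protein of the nuclear envelope, differed by −0.65 (SE 0.15) and VPS37D, a subunit of the sorting complex ESCRT-I, by −0.39 (SE 0.12).

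Kinases, phosphatases and adaptors were also among the members. PTPN12, a tyrosine phosphatase of focal adhesion proteins at the telomere end of the run, read 10.21, 10.01 and 9.92 in knockdown clones, against 10.50, 10.46 and 10.65 in control clones (−0.49, SE 0.11). STYXL1, a phosphatase relative without the usual catalytic residues, read 9.49, 9.49 and 9.33 in knockdown clones, against 10.15, 10.23 and 10.23 in control clones (−0.76, SE 0.09). LIMK1, the kinase that inactivates cofilin, differed by −0.37 (SE 0.09), with all knockdown clones below all control clones. Its dimmer probe sets gave −0.08 (SE 0.12) and −0.33 (SE 0.16), and on these the groups overlapped. YWHAG, which encodes 14-3-3 gamma, differed by −0.74 (SE 0.20), with 43.9% of the control signal in knockdown clone 3, and CLIP2, a microtubule linker, by −0.76 (SE 0.14).

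Enzymes and the stress protein HSPB1 completed the set of bright members. HSPB1, the small heat shock protein also called Hsp27, read 10.72, 10.66 and 10.84 in knockdown clones, against 11.82, 11.56 and 11.61 in control clones (−0.92, SE 0.11). MDH2, the malate dehydrogenase of mitochondria, read 12.17, 12.04 and 12.16 in knockdown clones, against 12.70, 12.65 and 12.66 in control clones (−0.54, SE 0.08). On these probe sets both were separated with little spread within the groups. A dimmer probe set of MDH2 read 7.97, 7.22 and 6.83 in knockdown clones 1, 2 and 3, against 7.99, 8.01 and 8.15 in control clones (−0.71, SE 0.26). There the knockdown clones were spread widely and clone 1 lay close to the controls. The limma adjusted p of MDH2 was 0.0491, and 0.0994 when the probe sets of a gene were averaged. POR, the reductase that passes electrons to cytochrome P450 enzymes, read 8.16, 7.59 and 7.28 in knockdown clones, against 8.53, 8.51 and 8.46 in control clones (−0.82, SE 0.20), with clone 3 lowest. ABHD11, a mitochondrial hydrolase, differed by −0.56 (SE 0.10) and TBL2, a protein of the endoplasmic reticulum, by −0.65 (SE 0.22).

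**Figure D2:**
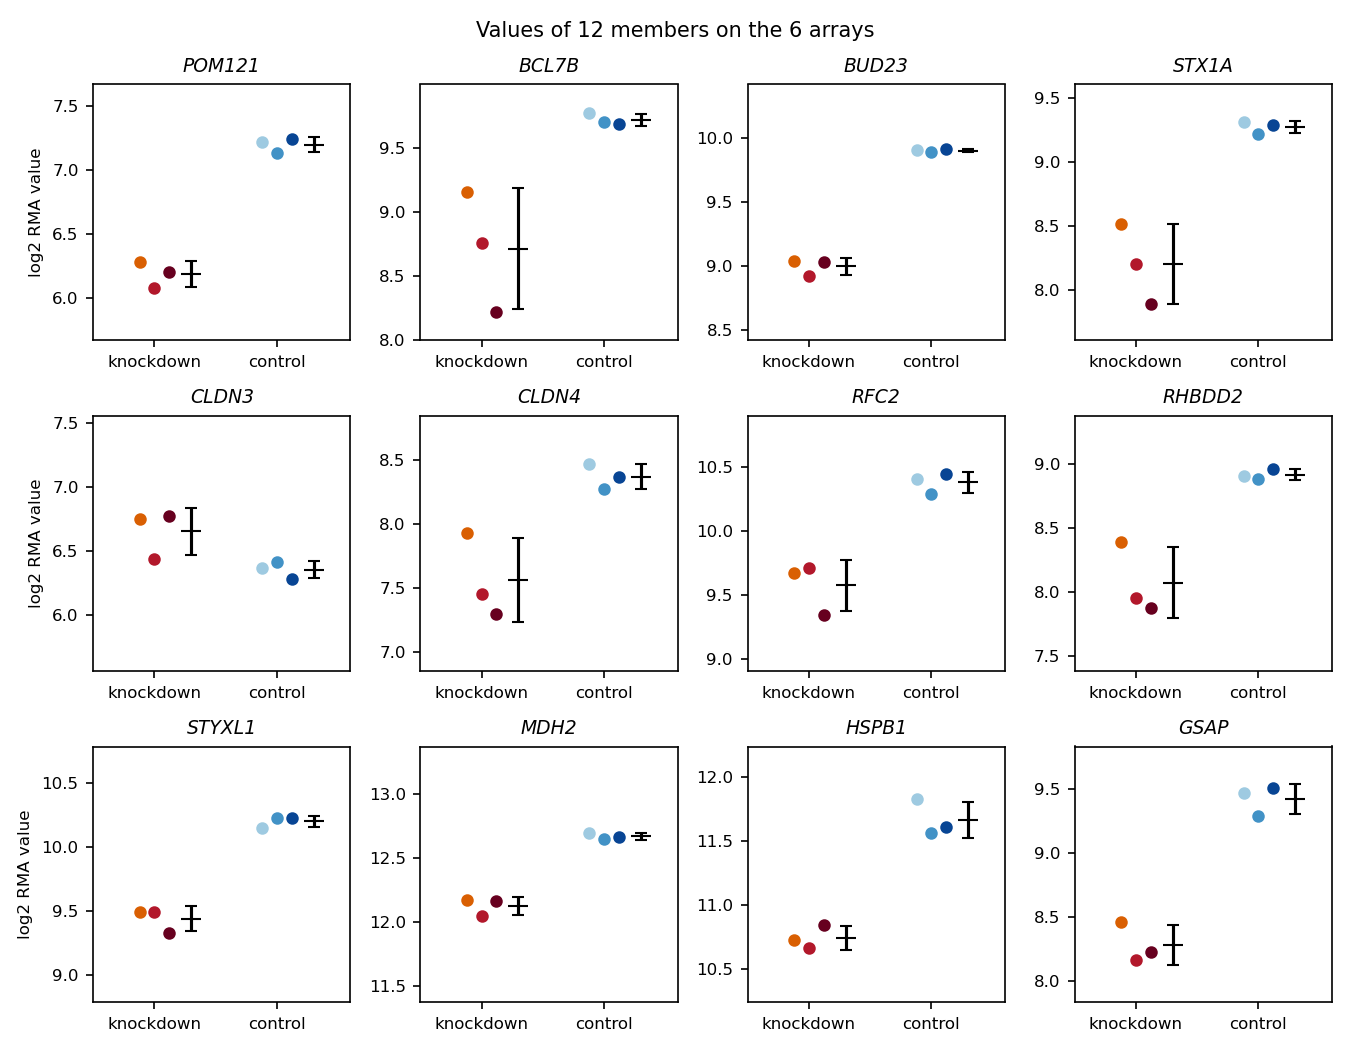
Log2 RMA values (vertical axes, each spanning 2 log2 units) of 12 members in the knockdown (left) and control (right) clones. Points are clones 1, 2 and 3 of each group from left to right, with the mean and SD (n = 3) as a bar beside them. The groups are apart in each panel, with knockdown below control except for CLDN3.

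Some members were not lower or did not separate the groups. LAT2, an adaptor of immune receptors, read 7.13, 6.52 and 7.87 in knockdown clones, against 7.13, 7.18 and 7.14 in control clones. Its change of 0.03 (SE 0.30) hides a clone on either side of the controls, and without knockdown clone 3 it was −0.32. CCDC146, a coiled-coil protein of centrioles, read 5.72, 5.68 and 6.60 in knockdown clones, against 6.48, 6.50 and 6.78 in control clones, so that clone 3 lay within the control range. ELN, which encodes elastin, had a mean of 5.18 and differed by −0.07 (SE 0.09).

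The 5 members with a mean up to 5 were TRIM50, FKBP6, FZD9, GTF2I and FGL2, with changes from −0.29 to 0.07 and a median of −0.01. FZD9 is a Wnt receptor, FKBP6 a germ cell immunophilin and FGL2 a secreted fibrinogen-related protein. In all, 29 members had a mean over 5. Their median change was −0.65, and in 24 of them all knockdown clones lay below all control clones, a pattern found in 14.4% of the 13043 genes above that level. All 8 called members are among these 29, and 0.598% of the genes above that level were called lower. That filter uses the mean over both groups.

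Among the members, the size of the shift went with the level. The 19 members with a mean over 8 had a median change of −0.76, from −1.14 to −0.40. Each of them was lower in all 3 knockdown clones than in any control clone. That pattern was found in 14.4% of all genes with a mean over 5, and its share among all genes with a mean over 8 was not counted. The count of 19 therefore only describes the members. The 10 members with a mean over 5 and up to 8 had a median of −0.38. How far background signal narrows the changes of dim probe sets was not tested.

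**Figure D3:**
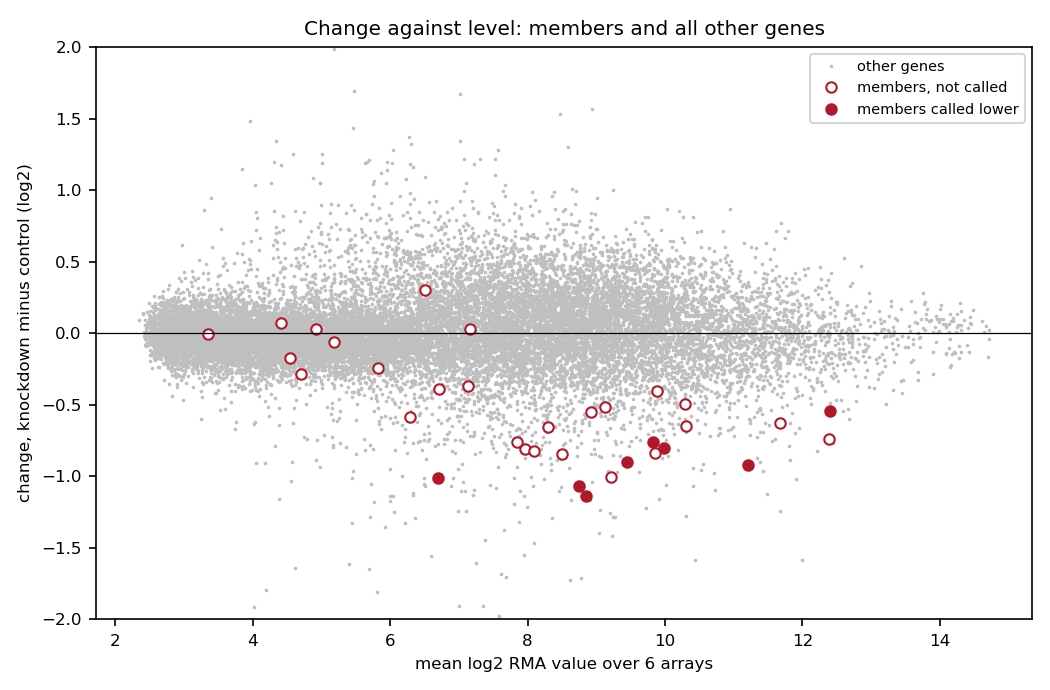
Change of each gene between knockdown and control clones (vertical axis, log2) against its mean log2 RMA value over 6 arrays (horizontal axis). Red circles are the 34 members, filled for the 8 called lower, and grey points are all other genes, of which 8 lie beyond the drawn range of −2 to 2. Members above a level of 8 all lie below 0, while members below 5 lie close to 0.

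The members' other probe sets read the same RNA samples and so are no replicates. With these added, the 34 members had 61 probe sets, of which 55 had a change below 0, 15 were called lower and 0 higher. Over all 54613 probe sets that are not controls, 0.308% were called lower. Of the 45 with a mean over 5, 43 were below 0. Of 18 members read by several probe sets, 14 showed 1 sign throughout. STYXL1 had 5 probe sets, of which 4 were called lower. ABHD11 and RHBDD2, not called on their brightest probe set, each had a dimmer one that was called (−0.93 and −0.96). That made 10 members with at least 1 called probe set. The share of all genes with at least 1 was not counted, and several probe sets give a gene more chances. Nothing is therefore read from that count. The second probe set of RFC2 read 8.97, 8.92 and 8.58 in knockdown clones, against 9.74, 9.68 and 9.76 in control clones. It differed by −0.90 (SE 0.12).

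The knockdown clones differed from each other within the run. Clone 3 was the lowest of the 3 in 16 members (47.1%), clone 2 in 15 (44.1%) and clone 1 in 3 (8.82%), while over all genes the shares were 37.4%, 31.6% and 30.7% for clones 3, 2 and 1. The median SD of the members was 0.19 over the knockdown clones and 0.05 over the control clones, against 0.16 and 0.08 over all genes. Above a mean of 5 it was 0.201 and 0.048 in the members, against 0.195 and 0.064 in all genes. The spread between knockdown clones was thus close to that of all genes above that level. Clone 3 was the lowest in BAZ1B, BCL7B, TBL2 and STX1A, where 38.2%, 35.2%, 43.9% and 38.5% of the control signal was left. Other members between these differed from that order. In BUD23 the 3 clones had nearly the same value, in VPS37D clone 2 was lowest with 66.7% of the control signal, and in MLXIPL clone 1 was lowest with 68.7% and clone 3 highest with 96.5%. With 1 array per clone these differences between clones were not tested.

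Genes between the named members were measured as well. From POM121 to PTPN12 the RefSeq order held 26 further measured genes, 19 of them with a mean over 5. The median change of those 19 was −0.28, and 16 (84.2%) were below 0 in all 3 knockdown clones, as were 22.3% of all genes with a mean over 5. In limma 0 of the 26 were called lower and 0 higher, with 10 lower and 1 higher at an unadjusted p under 0.05. GTF2IRD2, a relative of GTF2I with a near-identical copy, differed by −0.94 (SE 0.22), the clathrin adaptor HIP1 by −0.75 (SE 0.14) and POM121C by −0.68 (SE 0.16). POMZP3, a fusion of sequences related to POM121 and ZP3, was higher at 0.29 (SE 0.09), and TMEM270 and PMS2P5 gave 0.11 and 0.09. Many of these genes are repeated copies whose probe sets can read several loci.

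The 3 expressed genes next after PTPN12 were lower as well. The noncoding transcript APTR (−0.61, SE 0.17), RSBN1L (−0.61, SE 0.13) and TMEM60 (−0.58, SE 0.10) were lower in every knockdown clone. The gene after them, PHTF2, gave 1.11, 0.45 and −0.07 in knockdown clones 1, 2 and 3, and its 5 probe sets had changes from 0.01 to 0.58. The 25 expressed genes on the telomere side, which include those 3, had a median of 0.17, with STEAP2 at 0.58 (SE 0.23) and GNAI1 at 0.47 (SE 0.22). When the RNA index was a covariate that median was −0.01, and without knockdown clone 2 it was 0.08.

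On the centromere side the 3 knockdown clones parted. The 25 expressed genes before POM121 had medians of 0.19, −0.17 and −0.39 in knockdown clones 1, 2 and 3. Over the 13 expressed genes from VKORC1L1 to STAG3L4, a stretch singled out after its values were seen, the medians were 0.03, −0.36 and −0.55, and 2, 12 and 12 genes were below 0. RABGEF1, an exchange factor of endosomes, gave 0.03, −0.48 and −1.06, and TMEM248 differed by −0.46 (SE 0.24). ASL, the argininosuccinate lyase of the urea cycle, was lower in all (−0.31, −0.80 and −0.58). Farther from POM121 on that side, ZNF680 (0.62, SE 0.21), ZNF138 (0.62, SE 0.15) and NIPSNAP2 (0.54, SE 0.16) were higher in each knockdown clone. The 25 genes were taken by gene order without a stop at the centromere. NIPSNAP2 lies beyond it on the short arm, so the medians of the 25 mix both arms. Without knockdown clone 3 the median of the 25 genes was 0.05, against −0.09 with it. Where the lower values begin and end was not tested.

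**Figure D4:**
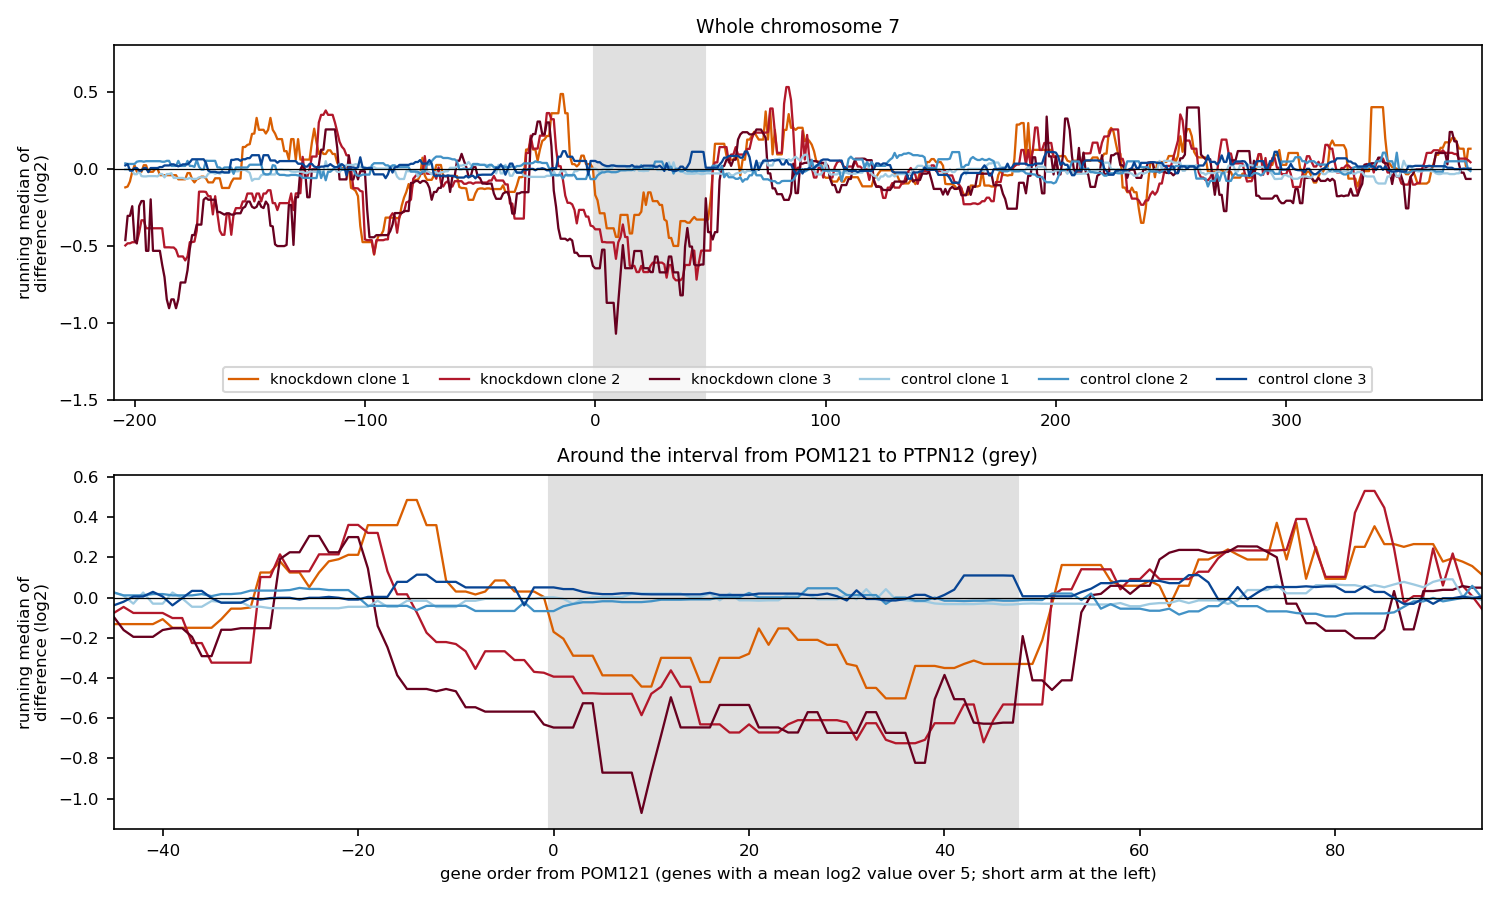
Running median over 11 neighbouring genes (vertical axis, log2 difference) along chromosome 7 in gene order counted from POM121 (horizontal axis), for genes with a mean over 5. Knockdown clones are set against the mean of the 3 controls and control clones against the mean of the other 2, and grey marks POM121 to PTPN12. Inside the grey band the knockdown lines run from −0.15 to −1.07 and the control lines from −0.07 to 0.11.

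Along the 595 genes of chromosome 7 with a mean over 5, the lowest running median over 11 genes lay inside the run in clone 2 (−0.72, PMS2P3 to YWHAG) and in clone 3 (−1.07, BAZ1B to CLDN4). In clone 1 it lay on the short arm instead, from CPVL to GARS1-DT (−0.56), and its lowest value inside the run was −0.50. The expressed genes of the short arm had a median change of −0.13 over 190 genes, and those of the long arm outside the run −0.02 over 357 genes. In limma 9 and 1 of these were called lower and 0 higher, against 0.598% lower of all genes with a mean over 5. All knockdown clones lay below all control clones in 57 and 49 of them, against 14.4% of those genes. On the short arm 41.1% were below 0 in all 3 knockdown clones and on the long arm 21.8%, against 22.3%. Lower values were thus not confined to the run. The longest unbroken stretches in which every expressed gene of chromosome 7 was below 0 in all 3 knockdown clones had 13 genes each. They were POM121 to ABHD11 and CASTOR2 to MDH2, both inside the run. The run was chosen for its lower values in these same clones. That these stretches and running medians lie inside it is therefore a description and no independent test.

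Genes that work with the members' products, all of them outside the run, were gathered in 15 lists. The lists held 121 genes, of which 110 were measured, with a median change of 0.06, and 0 passed in either direction in limma. At an unadjusted p under 0.05 there were 10 lower and 13 higher, against 1516 lower and 1801 higher among all 19775 genes. The smallest adjusted p was that of EIF4G1, the scaffold of translation initiation, at −0.61 (SE 0.11, limma adjusted p = 0.0668). Without knockdown clone 3 there were 2 lower and 8 higher calls, and without clone 1 there were 5 lower and 0 higher. Calls over all genes rose as well, to 441 lower and 784 higher without clone 3 and to 323 and 384 without clone 1. Nothing is therefore read from these partner counts.

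The clamp loader partners of RFC2 had a median of 0.22, with RAD17 at 0.33 (SE 0.10, limma adjusted p = 0.186). Nuclear pore partners of POM121 had a median of 0.23, with NUP155 at 0.46 (SE 0.12, limma adjusted p = 0.153). The RNA methyltransferases around BUD23 and NSUN5 had 0.37, with DIMT1 at 0.46 (SE 0.10, limma adjusted p = 0.0932). These medians lay above 0, where RFC2, POM121 and BUD23 themselves lay below it. Of the measured genes in these lists, 2 of 8, 1 of 6 and 1 of 6 were below 0. They include RFC4 (−0.35, SE 0.12) and TRMT112 (−0.17, SE 0.08), each lower in all knockdown clones than in any control clone. Chromatin remodelling partners of BAZ1B and BCL7B had a median of −0.09 (ARID1A −0.23, SE 0.08), and citrate cycle genes around MDH2 0.09 (SUCLA2 0.35, SE 0.11). The other 14-3-3 genes had −0.02, with YWHAE at 0.47 (SE 0.09, limma adjusted p = 0.0691).

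Tight junction genes around the claudins had a median of 0.16, with occludin, OCLN, at 0.48 (SE 0.11, limma adjusted p = 0.116). The cofilin pathway around LIMK1 had 0.20, with the kinase ROCK1 at 0.30 (SE 0.09). Elastic fibre genes had −0.03, among which the crosslinking enzyme LOX differed by −0.81 (SE 0.16, limma adjusted p = 0.0785). The remaining lists had medians from −0.08 to 0.07. Their leading genes were MLXIP (−0.45), VPS37B (−0.42), HMOX1 (−0.46), HSPH1 (0.32) and VAMP2 (0.18), with limma adjusted p-values between 0.102 and 0.481.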

How the data were processed

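RNA from 6 single clones of MDA-MB-231 (3 knockdown, 3 control) was labelled by a 3′ in vitro transcription protocol and hybridised to Affymetrix arrays, as the labels' protocols state. Values deposited by the authors are on the log2 scale, and the submitters' processing notes name RMA and Affymetrix Expression Console 1.0. RMA sets all arrays to one distribution, so a change shared by most genes would not be seen. No genome build is named by the labels or the table, and the number of arrays limits the precision.

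Of 54675 probe sets, 62 were controls and were left out, 41091 named 1 gene, 1801 several and 11721 none. Symbols were updated by gene identifier in a RefSeq table of GRCh38.p14 (41037 probe sets matched, 54 not), which also gave the gene order. Values were fitted with limma 3.58.1 in R 4.3.3 (lmFit and eBayes, group as the only term, two-sided, Benjamini-Hochberg adjustment over 54613 probe sets, called under 0.05). The fit was tested on simulated data. SE is the moderated standard error. Differences are knockdown minus control.

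The members, the lists of partner genes and the tests were chosen with earlier results of these data known. Named with values on each array were the called members, the 10 with the largest change above a mean of 5, those above 0 and both ends of the run. Outside the run and in each list the extremes were named, and other members by their change. The array values of MLXIPL and CCDC146, the percentages of TBL2 and YWHAG and the stretches next to the run were picked after their values were seen. The clones of the 2 groups share replicate numbers, but same-numbered clones did not deviate together (correlations −0.08, −0.09 and −0.05), so numbers were not used as pairs. Alternatives left out each clone in turn or changed the probe sets, filter, weights, scaling or covariates.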

Additional observations from a re-analysis of the deposited data

How the results depend on the processing

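The median change of the members stayed below 0 under every alternative tried. It ran from −0.69 to −0.52 with single clones left out and was −0.42 without probe sets ending in _x_at or _s_at, which left 23 members. In that setting knockdown clones 1, 2 and 3 gave −0.20, −0.53 and −0.38. Leaving out single clones gave 0 to 19 members called lower. The replicate block gave 0, array weights 18, the specific probe sets 2 and the RNA quality covariate 0, and the causes were not tested. The 8 called members were among those called without knockdown clone 1 or 3. Partner genes called lower came to 3 and higher to 2 with array weights, and to 0 to 5 and 0 to 8 with single clones left out.

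Over all genes, calls with single clones left out ran from 2 to 441 lower and from 0 to 784 higher. Lower and higher calls were 3 and 0 with the replicate block, 128 and 110 when probe sets were averaged, 51 and 37 with the specific probe sets, 44 and 19 with an intensity trend, 295 and 419 with array weights, and 1 and 0 with the RNA quality covariate. With a mean over 5 only, 97 were higher. The median of the telomere side was 0.075 without knockdown clone 2 (0.075 to 0.16 over single clones left out), 0.082 when a gene's probe sets were averaged and −0.0101 with the RNA quality covariate. That covariate moved the other interval genes to −0.38. The median of the centromere side (−0.09) was 0.05 without knockdown clone 3. LAT2 reversed without knockdown clone 3 (−0.32, and up to 0.354 with other clones left out), with the specific probe sets (−0.014), with array weights (−0.21) and with the covariate (−0.0075). The other 15 members given with array values by the naming rule kept their direction. Over all 34 measured members, 29 to 31 were below 0 under the alternatives that kept them all, so members near 0 changed sign. Without POM121, NSUN5 and GTF2I, or with members above a mean of 5, both settings added after seeing the data, the median was −0.63 and −0.65. How signal over background limits the 5 members with a mean up to 5 was not tested.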
